A study of Mus musculus with 8 samples.

Results

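Purkinje cell genes were examined in the adult mouse brain after prenatal ethanol. The group was a list of 8 genes, Pcp2, Calb1, Car8, Itpr1, Rora, Ppp1r17, Slc1a6 and Gdf10, and a gene entered when a probe set of the array carried its symbol and no other, the probe set with the highest mean being kept. A probe set was found in this way for 7 of the 8 genes, among 19938 genes in all, and each of the 7 had 1 such probe set. Itpr1 is not analysed here. Whole-brain RNA of male C57BL/6J mice aged 70 days was hybridised to Affymetrix Mouse Gene 1.0 ST arrays. Their mothers were injected with ethanol (2 doses of 2.5 g/kg a day) or with saline alone, either on gestational days 8 and 11 (early exposure) or on gestational days 14 and 16 (late exposure). Early ethanol, early saline, late ethanol and late saline were each measured on 2 arrays, and each array held the pooled RNA of 3 males from different litters.

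Purkinje cells are the large inhibitory neurons of the cerebellar cortex and its only output. They receive parallel fibers from granule cells and a climbing fiber from the brainstem, and calcium released inside their dendrites changes the strength of these synapses. The cerebellum is a known site of damage by prenatal alcohol. The genes divide by role into calcium handling (Calb1 and Car8), signalling proteins rich in the Purkinje cell (Pcp2 and Ppp1r17), glutamate uptake (Slc1a6), transcription (Rora) and a secreted growth factor (Gdf10). The label covers them unequally by textbook knowledge. In the adult cerebellum Gdf10 is known as a gene of Bergmann glia, the radial astrocytes around Purkinje cells. Calb1 is also expressed by neurons of the striatum, cortex and hippocampus, and Rora by neurons of the thalamus and cortex. In whole-brain RNA fewer cells of a type and less RNA per cell cannot be told apart.

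All values are on the log2 scale as deposited, after robust multiarray averaging (RMA), so a difference of 1 is a doubling. Arrays were compared within a timing only, because the medians of the 35556 probe sets lay at 6.74 to 6.84 in the early arrays and at 7.21 to 7.30 in the late arrays. Odorant and vomeronasal receptors are mostly silent in the brain, and the 95th percentile of their 1210 probe sets served as the background of each array. It was 6.41 to 6.55 in the early arrays. Among the late arrays it was 7.70 in ethanol replicate 1, 7.28 in ethanol replicate 2, and 7.36 and 7.50 in saline replicates 1 and 2, so late ethanol replicate 1 had the highest background and the smallest share of probe sets above it (48.5%, against 51.1% to 53.8% in the other 3 late arrays). The lowest correlation between 2 arrays of a timing was 0.993 across probe sets. Of the 7 genes, 6 lay above background on all 8 arrays and Slc1a6 on 7.

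The promoters of Pcp2, Slc1a6 and Gdf10 are shown because these are the genes among the 5 that stood low on a late array, below, for which RefSeq sequence was at hand (build GRCm38.p6). Of the 7 genes, 4 had an entry, the fourth being Rora, which encodes a nuclear receptor that binds the half-site AGGTCA or TGGGTCA after an A/T-rich stretch. Each window runs 5′ to 3′ from 250 bases before to 50 after a start site, with matches to AGGTCA or TGGGTCA, or to their reverse complements, in capitals.
Pcp2, chr8:3625498-3625797, minus strand: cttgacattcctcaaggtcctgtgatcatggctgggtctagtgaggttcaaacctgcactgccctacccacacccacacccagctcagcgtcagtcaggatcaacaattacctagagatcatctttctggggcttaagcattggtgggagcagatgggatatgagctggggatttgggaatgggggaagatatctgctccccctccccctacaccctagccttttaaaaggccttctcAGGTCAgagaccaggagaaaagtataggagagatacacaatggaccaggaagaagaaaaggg
Pcp2, chr8:3625233-3625532, minus strand: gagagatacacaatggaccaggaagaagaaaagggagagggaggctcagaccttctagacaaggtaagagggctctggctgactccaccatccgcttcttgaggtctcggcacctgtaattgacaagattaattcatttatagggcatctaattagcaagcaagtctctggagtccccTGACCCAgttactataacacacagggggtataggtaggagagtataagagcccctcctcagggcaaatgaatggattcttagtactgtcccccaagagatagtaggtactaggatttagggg
Slc1a6, chr10:78780246-78780545, plus strand: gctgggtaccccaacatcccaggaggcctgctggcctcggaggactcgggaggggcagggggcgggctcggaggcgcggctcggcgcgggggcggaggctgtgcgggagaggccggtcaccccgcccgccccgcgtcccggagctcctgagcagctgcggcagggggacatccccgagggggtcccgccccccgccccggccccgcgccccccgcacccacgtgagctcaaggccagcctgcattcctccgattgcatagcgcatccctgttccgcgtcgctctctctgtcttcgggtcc
Gdf10, chr14:33923337-33923636, plus strand: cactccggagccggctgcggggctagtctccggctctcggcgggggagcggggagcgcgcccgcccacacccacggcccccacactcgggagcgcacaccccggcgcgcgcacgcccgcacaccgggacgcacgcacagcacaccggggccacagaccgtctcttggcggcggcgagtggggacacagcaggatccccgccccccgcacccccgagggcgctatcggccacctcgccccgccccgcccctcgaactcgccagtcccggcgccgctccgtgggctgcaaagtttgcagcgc

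Pcp2 had 4 annotated start sites, and each of their windows held 1 match. The windows overlap, so these are 2 distinct AGGTCA sites, 1 of them seen in 2 windows, and 1 TGGGTCA site, read on the opposite strand as TGACCCA. The windows of Slc1a6, Gdf10 and Rora (chr9:68653536-68653835, plus strand) held 0 matches to either. Over 32851 promoter windows of the same length, AGGTCA was present on either strand in 16.3% and TGGGTCA in 3.98%. These shares are per window, and Pcp2 had 4 windows. The A/T-rich stretch was not part of a match. Both AGGTCA sites of Pcp2 follow a C, so the longer TAGGTCA, present in 2.61% of all windows, was absent from its windows. The Slc1a6 and Gdf10 windows were rich in G and C (75.7% and 77.3%), against 47.7% to 53.3% in the windows of Pcp2. A match here describes the letters of the window and is no evidence of binding.

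The first comparison asked whether these genes differed in adults exposed to ethanol on gestational days 8 and 11. No difference passed the test. The median difference over the 7 genes, ethanol minus saline, was 0.002, against -0.02 over all 23410 probe sets tested, with 3 genes lower and 4 higher. Of all probe sets, 13988 were lower and 9417 higher. In limma, 0 of the 7 passed an adjusted p under 0.05, as did 0% of all probe sets, while 0 of the 7 and 401 of all probe sets had an unadjusted p under 0.05. The thresholds of the study's methods are an unadjusted p under 0.05 with a fold of 1.2. The study took its p from an analysis of variance, while here they were applied to the limma p unless another test is named. At these thresholds 0 of the 7 passed, against 0.278% of all probe sets in the higher and 0.645% in the lower direction.

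Pcp2, a regulator of G protein signalling found almost only in Purkinje cells and retinal bipolar cells, was at 9.40 and 8.97 in early ethanol, against 9.13 and 9.23 in early saline. The ethanol arrays lay on either side of the saline arrays, with a difference of 0.002 (SE 0.15, 95% interval -0.35 to 0.35). Ppp1r17, which encodes a protein phosphatase inhibitor known as G-substrate, was at 9.20 and 9.08 in early ethanol, against 9.23 and 9.03 in early saline. Here the saline arrays enclosed the ethanol arrays, with a difference of 0.009 (SE 0.18).

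Calb1, the calcium buffer calbindin, was at 12.36 and 12.38 in early ethanol, against 12.40 and 12.14 in early saline. The difference was 0.10 (SE 0.10), and without saline replicate 2, the lowest array, it was -0.03. Car8, a carbonic anhydrase-related protein that binds the IP3 receptor and lowers its affinity for IP3, was at 11.56 and 11.50 in early ethanol, against 11.67 and 11.48 in early saline. The groups overlapped, and the difference was -0.05 (SE 0.11).

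Slc1a6, the glutamate transporter EAAT4 of Purkinje dendrites, was at 7.23 and 7.11 in early ethanol, against 7.45 and 7.15 in early saline. Its difference was -0.13 (SE 0.14), and without saline replicate 1 it was 0.02. Rora was at 10.24 and 10.13 in early ethanol, against 10.27 and 10.20 in early saline, a difference of -0.05 (SE 0.09). Both genes overlapped between the groups.

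Gdf10, a growth factor of the TGF-beta family, was the only member whose early groups did not overlap. It was at 8.10 and 7.98 in early ethanol, against 7.95 and 7.84 in early saline. The nearest ethanol and saline arrays lay 0.03 apart, less than the 0.12 between the ethanol arrays and the 0.10 between the saline arrays. The difference was 0.15 (SE 0.13, 95% interval -0.16 to 0.45, limma adjusted p = 1). Over all probe sets, both early ethanol arrays lay above both saline arrays in 7.5% and below them in 18.9%, against 1 and 0 of the 7 genes. With 2 arrays against 2, the smallest p of an exact two-sided permutation test is 0.333, so no single gene could pass such a test.

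**Figure D1:**
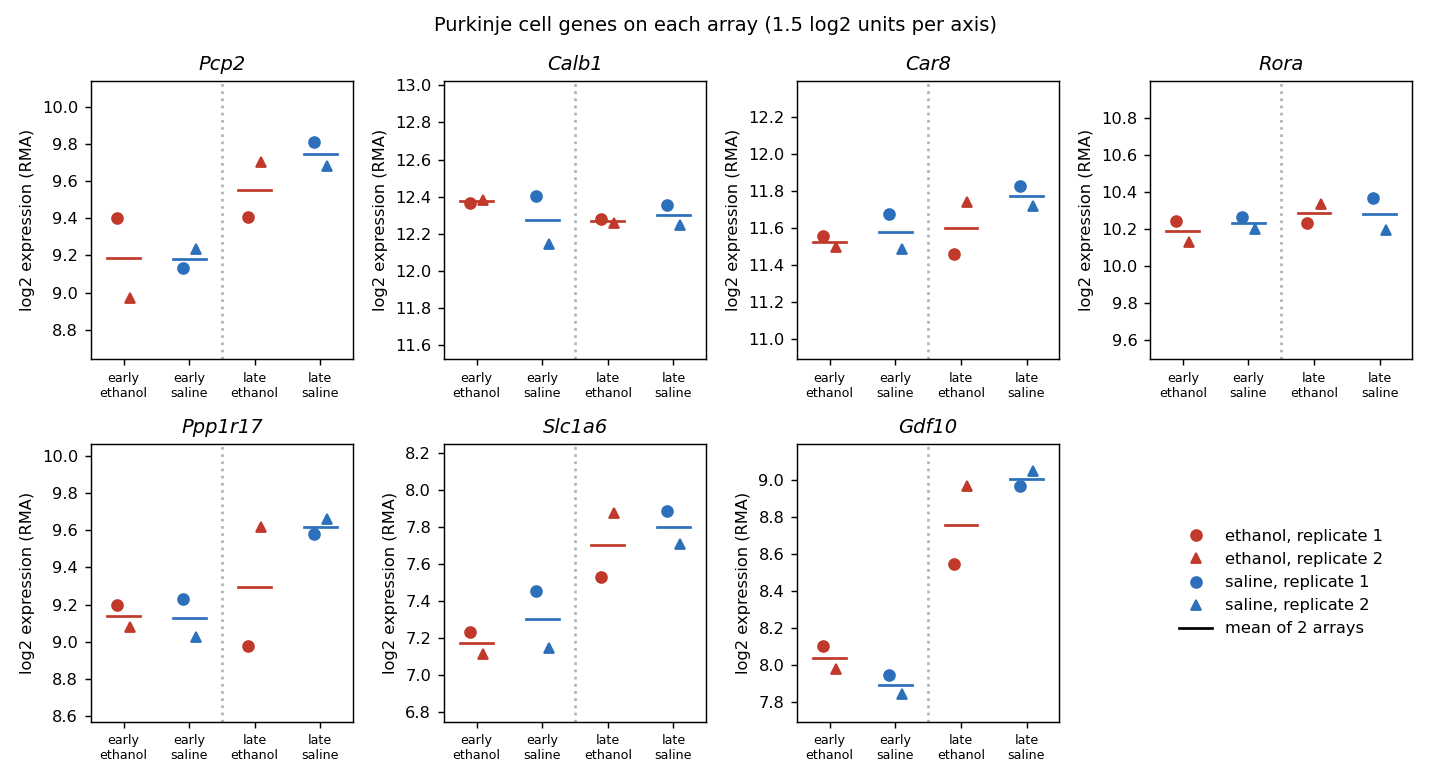
Log2 expression (RMA, vertical axes) of the 7 genes by group (horizontal axes), with 1 point per array, ethanol in red, saline in blue, circles for replicate 1, triangles for replicate 2 and a bar marking each group mean (n = 2). Late ethanol replicate 1 is the lowest late array for Pcp2, Car8, Ppp1r17, Slc1a6 and Gdf10, while the early arrays overlap for every gene but Gdf10, and levels are not comparable across the dotted line.

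The second comparison asked the same of exposure on gestational days 14 and 16. No difference passed the test. The mean was below that of saline for 6 genes (12330 of all 23410 probe sets). In 5 of these 6 genes, 1 of the 2 ethanol arrays stood below the other 3 late arrays. The median difference was -0.17, against -0.01 over all probe sets. In limma 0 of the 7 passed an adjusted p under 0.05 (0% of all probe sets), 0 of the 7 and 583 of all probe sets had an unadjusted p under 0.05, and 0 of the 7 passed the study's thresholds (0.722% of all probe sets in the lower and 0.44% in the higher direction). Both late ethanol arrays lay below both saline arrays for 1 of the 7, against 15.7% of all probe sets, and above them for 0, against 12.7%.

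Ppp1r17 differed most. It was at 8.98 and 9.62 in late ethanol, against 9.58 and 9.66 in late saline. Ethanol replicate 2 thus lay between the saline arrays and ethanol replicate 1 lay 0.60 below the lowest other late array. The difference was -0.32 (SE 0.18, 95% interval -0.75 to 0.10, limma adjusted p = 1), and without ethanol replicate 1 it was -0.0008.

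Pcp2 was also lowest in ethanol replicate 1. It was at 9.41 and 9.70 in late ethanol, against 9.81 and 9.68 in late saline, a difference of -0.19 (SE 0.15, 95% interval -0.54 to 0.16). Only ethanol replicate 1 stood apart, 0.27 below the lowest other array, and without it the difference was -0.05.

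Of the 2 calcium handling genes, Car8 followed this pattern and Calb1 did not. Car8 was at 11.46 and 11.74 in late ethanol, against 11.83 and 11.72 in late saline, a difference of -0.17 (SE 0.11, 95% interval -0.43 to 0.09) that was -0.03 without ethanol replicate 1. Calb1 was at 12.28 and 12.26 in late ethanol, against 12.36 and 12.25 in late saline. Its 4 late arrays lay within 0.11, and the difference was -0.03 (SE 0.10).

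Slc1a6 was at 7.53 and 7.88 in late ethanol, against 7.89 and 7.71 in late saline. Ethanol replicate 1 lay below the background of that array (7.70), so its level there is only a bound. The difference was -0.09 (SE 0.14), and without ethanol replicate 1 it was 0.08. Gdf10 was at 8.549 and 8.965 in late ethanol, against 8.967 and 9.047 in late saline. Its groups did not overlap, but ethanol replicate 2 lay only 0.0014 below the nearer saline array. The difference was -0.25 (SE 0.13, 95% interval -0.55 to 0.05, limma adjusted p = 1), and it was -0.04 without ethanol replicate 1.

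Rora, whose loss in the staggerer mouse stops Purkinje cells from maturing, was at 10.23 and 10.34 in late ethanol, against 10.37 and 10.19 in late saline. The saline arrays enclosed the ethanol arrays, with a difference of 0.01 (SE 0.09, 95% interval -0.21 to 0.22). Of the 7 genes, Rora and Calb1 were thus the 2 in which late ethanol replicate 1 was not the lowest late array.

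**Figure D2:**
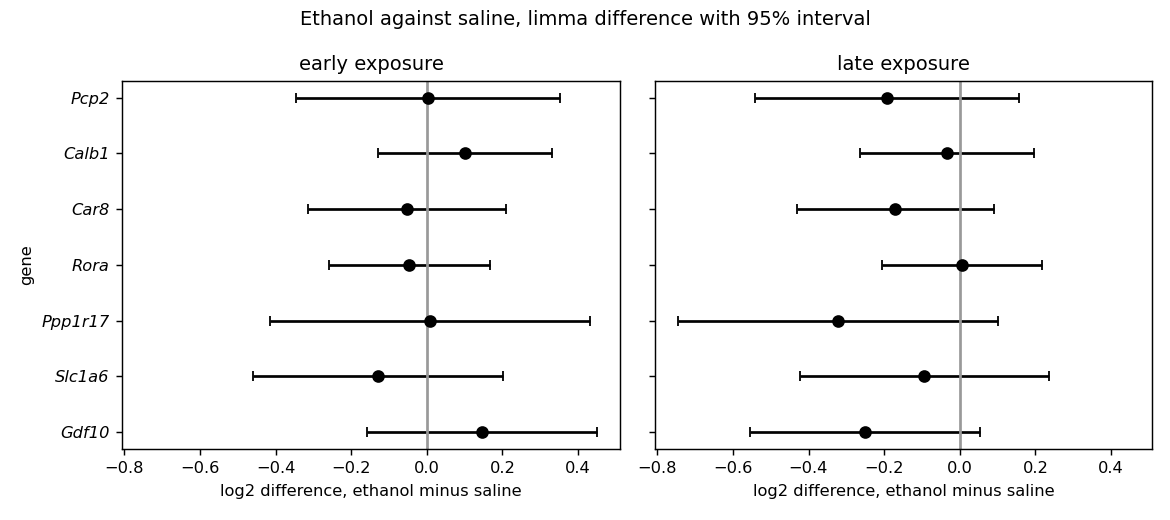
Log2 difference, ethanol minus saline (horizontal axes), of the 7 genes (vertical axes) for early exposure on the left and late exposure on the right, with points at the limma estimate and bars for the 95% interval. All 14 intervals include 0, and the lowest estimate is that of Ppp1r17 after late exposure, -0.32.

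The early effect minus the late effect was tested for each gene in the same fit, and 0 of the 7 passed an adjusted p under 0.05 (0% of all probe sets). The values were 0.40 for Gdf10 (SE 0.19), 0.33 for Ppp1r17 (SE 0.26), 0.20 for Pcp2 (SE 0.22), 0.13 for Calb1 and 0.12 for Car8. They were -0.04 for Slc1a6 and -0.05 for Rora. An effect at 1 timing and not at the other was therefore not shown for any of these genes.

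Late ethanol replicate 1 was set against the other 3 late arrays, a description chosen after the values were seen. It was the lowest late array for 5 of the 7 genes, against 30.2% of all probe sets, and in all 5 it lay more than 0.1 below the lowest other array, against 12.1% of all probe sets. The array minus the mean of the other 3 was -0.64 for Ppp1r17, -0.44 for Gdf10, -0.32 for Pcp2, -0.30 for Car8 and -0.29 for Slc1a6, the last with a value below the background of this array and so only a bound. It was -0.06 for Rora and -0.01 for Calb1. For the 5 genes the other 3 arrays, with ethanol replicate 2 among them, spanned 0.08 to 0.18. The same 5 genes were lowest there after centring on the median, quantile normalization or cyclic loess over all 8 arrays. The high background of this array moves with the pattern, and its part in the result was not tested.

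**Figure D3:**
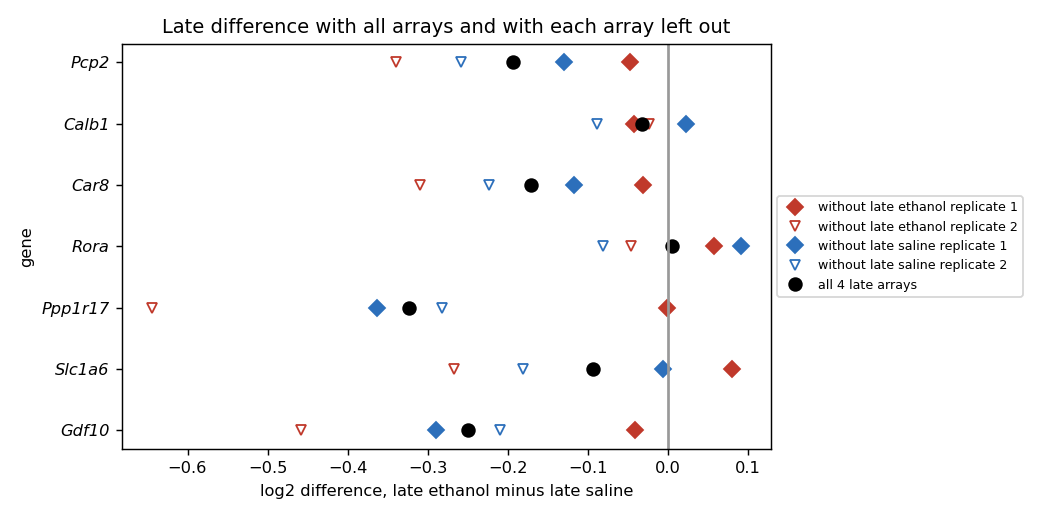
Log2 difference, late ethanol minus late saline (horizontal axis), of the 7 genes (vertical axis) with all 4 late arrays (black circles) and with 1 late array left out, ethanol in red and saline in blue, filled diamonds without replicate 1 and open triangles without replicate 2. Without late ethanol replicate 1 all 7 values lie between -0.05 and 0.08, and without late ethanol replicate 2 Ppp1r17 is at -0.64.

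Leaving out the other ethanol array instead left replicate 1 alone in its group, assumed to vary like the other groups. Then 3 of the 7 genes passed the study's thresholds, Ppp1r17 (-0.64), Gdf10 (-0.46) and Car8 (-0.31), all lower. In that fit 1750 of all probe sets passed them, against 272 with all arrays, 3.27% in the lower and 4.2% in the higher direction. In limma 0 passed an adjusted p under 0.05, the lowest adjusted p being 0.547. The difference of Pcp2 was -0.34 in that fit.

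Genes of granule cells, the small excitatory neurons that feed Purkinje cells, and of unipolar brush cells were mostly lower in late ethanol. This held in 11 of 12 cases (12330 of all 23410 probe sets), with a median of -0.29. Both ethanol arrays lay below both saline arrays in 10 of the 12 (15.7% of all probe sets). In limma 0 of 12 passed an adjusted p under 0.05 and 4 passed the study's thresholds, all lower (0.722% of all probe sets). Fat2, an atypical cadherin of granule cells, was at 8.81 and 9.31 in late ethanol, against 9.48 and 9.43 in late saline, a difference of -0.40 (SE 0.15) that was -0.15 without ethanol replicate 1. Cbln1, the synaptic organizer that granule cells release onto Purkinje cells, differed by -0.38, and by -0.16 without that array. Eomes, a transcription factor of unipolar brush cells, differed by -0.365, which is only a bound because its value in ethanol replicate 1 (7.57) lay below the background of that array. Leaving out ethanol replicate 1 gave -0.23 for Eomes, and leaving out saline replicate 2 gave -0.18. Late ethanol replicate 1 was the lowest late array for 11 of these 12 genes (30.2% of all probe sets), Eomes at background among them, with a median of -0.43 against the mean of the other 3. Without it the median difference was -0.10 for this list and -0.03 for the Purkinje cell genes. Whether the 2 lists differ was not tested.

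Genes of glutamate receptor and calcium signalling in Purkinje cells gave smaller values. Of 16 listed, 12 were measured. In late ethanol 10 were lower (12330 of all 23410 probe sets) and 2 higher, with a median of -0.08. This median was -0.01 without ethanol replicate 1, -0.003 without saline replicate 1 and -0.02 with quantile or cyclic loess normalization. Plcb3, a phospholipase C that makes IP3, was at 8.38 and 8.38 in late ethanol, against 8.52 and 8.48 in late saline, a difference of -0.12 (SE 0.09) that was the same without ethanol replicate 1. Grid2ip, which anchors the delta receptor at the parallel fiber synapse, differed by -0.14, and by -0.01 without ethanol replicate 1, and lay above background on 4 of the 8 arrays. Homer3, a scaffold of metabotropic receptors, differed by -0.09 and by 0.01 without ethanol replicate 1. In this list 0 genes passed either threshold.

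Of 16 other Purkinje markers listed, 14 were measured. In late ethanol 10 were lower (12330 of all 23410 probe sets) and 4 higher, with a median of -0.06. Of these 14 genes, 9 lay above background on all 8 arrays. The median was -0.15 with the lowest 50% of probe sets removed, -0.03 with quantile normalization and -0.04 with cyclic loess. In limma 0 of the 14 passed an adjusted p under 0.05, and 1 passed the study's thresholds in the lower direction (0.722% of all probe sets). This was Gng13, a G protein gamma subunit, at 9.27 and 9.59 in late ethanol, against 9.68 and 9.84 in late saline. Its difference was -0.32 (SE 0.11, limma adjusted p = 1), and without ethanol replicate 1 it was -0.16. Inpp5a, an IP3 phosphatase, and Pvalb, the calcium buffer parvalbumin, differed by -0.22 each, and by -0.08 and -0.07 without that array.

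The Bergmann glia list, which leaves out Gdf10, was lower in 7 of 7 cases (12330 of all 23410 probe sets) with a median of -0.08. The median was 0.003 with quantile normalization, -0.02 with cyclic loess, -0.01 without saline replicate 1 and -0.03 without ethanol replicate 1. In limma 0 passed an adjusted p under 0.05 and 0 the study's thresholds. Septin4, a cytoskeletal GTPase of Bergmann glia, differed by -0.14 (-0.08 without ethanol replicate 1). Hopx differed by -0.11 (-0.01 without that array) and Slc1a3, the glial glutamate transporter, by -0.10 (-0.01 without saline replicate 1). In late ethanol replicate 1 the median of the list against the mean of the late arrays was -0.08, and the value of Gdf10 was -0.33.

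Lists of the other regions and cell types were placed beside these, as deviations of each array from the mean of its timing. In late ethanol replicate 1 the Purkinje cell genes had a median of -0.22 and the granule and unipolar brush genes -0.32. The other cerebellar lists were at -0.07 (signalling), -0.08 (other Purkinje markers), -0.08 (Bergmann glia) and -0.05 (molecular layer interneurons). Of the other Purkinje markers 9 of 14 lay above background on all 8 arrays, against 6 of 7 Purkinje cell genes. Astrocyte genes were at -0.15, myelin genes at -0.09, thalamic genes at -0.08, endothelial genes at -0.08, olfactory bulb genes at -0.06 and microglial genes at -0.05. Striatal genes were at 0.04, genes of upper cortical layers at 0.01, hippocampal genes at -0.01, choroid plexus genes at -0.01 and general neuronal genes at -0.02, against 0.002 over all genes. Late medians, ethanol minus saline, were -0.16 for endothelial, -0.13 for myelin, -0.07 for astrocyte, -0.07 for general neuronal and -0.06 for thalamic genes. Without late ethanol replicate 1 they were -0.15, -0.11, -0.05, -0.11 and 0.006. With all arrays those of interneuron, hippocampal, cortical, striatal, olfactory bulb, microglial and choroid plexus genes lay between -0.05 and 0.007. Late ethanol replicate 1 was lowest for 8 of 12 signalling genes, 7 of 14 other Purkinje markers and 4 of 7 Bergmann genes. Over all probe sets this held in 30.2%. It was lowest for 4 of 5 astrocyte, 5 of 8 myelin, 5 of 9 thalamic and 4 of 8 olfactory bulb genes. This held for 3 of 6 general neuronal, 2 of 4 endothelial and 2 of 6 choroid plexus genes. Counts were 2 of 5 for microglial, upper cortical and interneuron genes, 1 of 6 for hippocampal and 0 of 7 for striatal genes. How much the other cell types contribute to the values of the Purkinje cell genes was not tested.

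**Figure D4:**
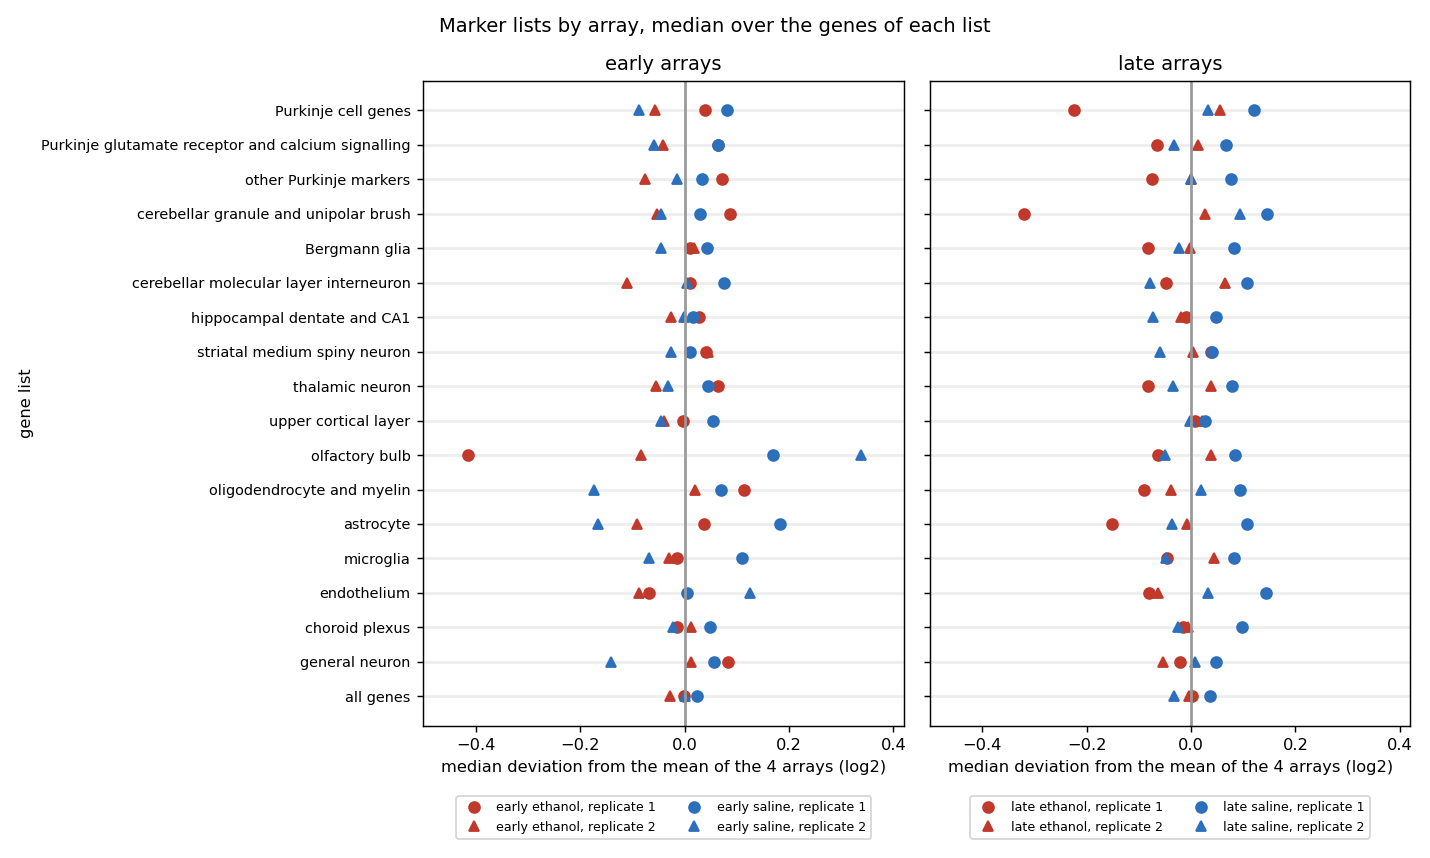
Median deviation of each gene list (vertical axis) from the mean of the 4 arrays of its timing (horizontal axis, log2), with 1 point per array, early arrays on the left and late arrays on the right, ethanol in red, saline in blue, circles for replicate 1 and triangles for replicate 2. In the late arrays the granule and unipolar brush genes (-0.32) and the Purkinje cell genes (-0.22) lie farthest to the left, both in ethanol replicate 1, and in the early arrays the olfactory bulb genes do (-0.41, ethanol replicate 1).

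After early exposure the medians of the Purkinje cell genes were 0.04 and -0.06 in early ethanol, against 0.08 and -0.09 in early saline. The granule and unipolar brush genes had a median difference of 0.03, with 5 of 12 lower, and among them Zic2, a zinc finger transcription factor, differed by 0.32 (SE 0.15), and by 0.12 without early ethanol replicate 1. Eomes differed by -0.27 (SE 0.14). It is also expressed by projection neurons of the olfactory bulb. Of 8 olfactory bulb genes, 8 were lower in early ethanol (13988 of all 23410 probe sets), with a median of -0.53. Of these 8, 6 passed the study's thresholds, all lower (0.645% of all probe sets), and 3 lay above background on all 8 arrays. The part of the olfactory bulb genes in the value of Eomes was not tested. The signalling list had a median of -0.02, the other Purkinje markers -0.004 and the Bergmann glia 0.03. Without early ethanol replicate 1 the median of the other Purkinje markers was -0.11, and without early saline replicate 2 that of the Bergmann glia was -0.02. Genes of molecular layer interneurons had a median of -0.11, with 4 of 5 lower, and were lowest in early ethanol replicate 2 (-0.11 against the mean of the early arrays), as were the other Purkinje markers (-0.08) and the granule and unipolar brush genes (-0.05). In these 5 lists 0 genes passed either threshold. Pcp4, a calmodulin-binding protein, was the other Purkinje marker with the smallest unadjusted p, with a difference of 0.19 (SE 0.10), which was 0.09 without early saline replicate 2. Among the Bergmann genes it was Fabp7, a fatty acid binding protein of radial glia, with -0.27 (SE 0.15), and -0.04 without early ethanol replicate 1. In the signalling list it was the calcium channel gene Cacna1a, at 0.11 (SE 0.09), and 0.05 without early ethanol replicate 1.

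With each gene centred on the mean of its timing, Car8 lay nearest to the median profile of the 7, with a root mean square difference of 0.02 over the 8 arrays. It was 0.07 for Slc1a6, 0.08 for Rora, 0.08 for Gdf10, 0.10 for Calb1, 0.11 for Pcp2 and 0.12 for Ppp1r17. This distance counts the size of the swings as well as their shape, and each gene enters the median. Car8 was itself the median in late ethanol replicate 1 (-0.22), where Ppp1r17 was at -0.48. Among 9189 other genes above background on all 8 arrays, the 5 nearest to that median profile were Raly, which encodes an RNA-binding protein (0.013), Arhgap10, a GTPase-activating protein (0.023), Kdm6b, a histone demethylase (0.023), Gtf3a, a transcription factor of 5S ribosomal RNA (0.025), and Kcnk3, a potassium channel (0.027). In late ethanol replicate 1 these 5 were at -0.21 to -0.18 against the mean of the late arrays. They were picked for likeness over 8 arrays, and nothing follows from it about their function.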

How the data were processed

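The deposited values are log2 expression of 35556 probe sets, which the authors summarised in Partek (6.6 in the submitters' processing notes, another version in the methods) by GC-adjusted RMA, including quantile normalization. The methods describe this for the early arrays, and the late arrays are assumed to be alike. The arrays of each timing seem to have been normalized apart. Only promoter windows carry coordinates, since the build of the array annotation was not given in the sources used here. Of the probe sets, 23410 with a symbol were tested, 21789 with 1 symbol and 1621 with several.

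Group means over all 8 arrays were fitted with limma 3.58.1 (R 4.3.3) with moderated variances, with Benjamini-Hochberg adjustment over the 23410 probe sets and thresholds as in the text. The fit was tested on simulated data. Intervals are 95% from the fit. A p-value here measures the spread between pools of 3 mice, and 2 arrays per group limit the precision. Alternatives were other fits, normalizations and filters, and leaving out each array in turn. Figures were drawn with matplotlib 3.10.9.

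The genes and lists were chosen with earlier results of these data known. Named besides the 7 genes were, per timing, the 3 genes of smallest p in the 4 cerebellar lists closest to them (not all are printed), and the 5 nearest profiles. List values are medians over members, without a set test. Titles number the arrays 1 and 2 in every group, and nothing says that equal numbers share a litter or day.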

Additional observations from a re-analysis of the deposited data

Results flagged for a closer look

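Gdf10 lay higher in both early ethanol arrays and lower in both late ethanol arrays than in the saline arrays of the same timing. The nearest ethanol and saline arrays were only 0.03 (early) and 0.0014 (late) apart, against 0.12 and 0.42 between the ethanol arrays. The early effect minus the late effect was 0.40 on the log2 scale (SE 0.19, 95% interval -0.03 to 0.83, limma adjusted p = 1), so the difference did not pass the test. It was 0.19 without late ethanol replicate 1, the lowest value with any array left out, and 0.60 without late ethanol replicate 2, the highest.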

How the results depend on the processing

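Other fits and filters left the difference of each gene unchanged, so only another normalization or leaving out an array could move it. The median difference of the 7 genes moved by less than the spread between arrays under every such alternative. It lay between -0.08 and 0.07 for early and between -0.31 and -0.03 for late exposure with 1 array left out. The late spread (0.147) includes the low late ethanol replicate 1, so this check says little about that array. Without it the late median went from -0.17 to -0.03. The count of genes past the study's thresholds was 0 throughout except without late ethanol replicate 2 (0 to 3 over the late settings). In no setting did a member pass the adjusted threshold. Of 168 member values under other fits, normalizations and filters, 2 changed sign, both of Calb1 after late exposure (0.040 with quantile normalization, 0.032 with cyclic loess). Of these values only those under another normalization could change sign. Leaving out an array changed only the differences of its own timing, so differences of the other timing could not change sign. Of 112 values with an array left out, 12 changed sign. Their ranges after early exposure were -0.21 to 0.22 (Pcp2), -0.030 to 0.23 (Calb1), -0.15 to 0.042 (Car8), -0.10 to 0.0081 (Rora), -0.094 to 0.11 (Ppp1r17) and -0.28 to 0.023 (Slc1a6), and after late exposure -0.088 to 0.022 (Calb1), -0.080 to 0.092 (Rora) and -0.27 to 0.080 (Slc1a6). The cause was not tested. Each gene had 1 probe set, so no other probe set could be tried.

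Over all probe sets, 216 (early) and 272 (late) passed the study's thresholds, 60 and 58 in an unmoderated test, which for a pair of groups equals a one-way analysis of variance, 669 and 674 with every probe set kept, 169 (late) without the lowest 50%, and 210 to 781 and 242 to 1750 with an array left out. At an adjusted p under 0.05, 0 became 13 (early) without early ethanol replicate 2. Same-numbered arrays deviated together in the early (correlation 0.466) but not the late arrays (-0.464). The replicate block gave 260 and 301, and 1 adjusted call, Stoml3 (early, -1.59), and with late numbers crossed, chosen after seeing the data, 228 and 249, with 0 adjusted calls. It changed no call of a member.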
